A study of Rattus norvegicus with 12 samples.

Results

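Liver microRNA levels after caffeine alone (group CAF) were compared with those after vehicle (group Control), over every feature of the deposited table with a value above 0 in 3 or more of the 6 libraries that make up these groups. This kept 271 of 444 features, 265 of them microRNA genes and 6 of other kinds. Of the rest, 117 were at 0 in all 6 libraries and 56 were above 0 in 1 or 2. At the border of the rule, the most abundant of the 19 features above 0 in exactly 3 libraries, Mir463, averaged 2.17 reads, and the most abundant of the 21 above 0 in exactly 2, Mir92b, averaged 0.667 reads.

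The animals were male Sprague-Dawley rats (Jcl:SD), an outbred stock, 7 weeks old when dosing started. They were dosed by mouth for 5 days in a row and liver was taken 1 h after the last dose. CAF rats received caffeine at 120 mg/kg and Control rats received the vehicle, sterile distilled water. In the other groups, DEX rats received dextromethorphan hydrobromide monohydrate, a cough suppressant, at 100 mg/kg, and CAF+DEX rats received both drugs at these doses. Each group had 5 rats, of which 3 libraries per group are analysed here. Which rat a library came from is not in the labels, and each p-value therefore covers the spread among these libraries, which may in part be technical. Libraries are named by group and by the number in the table's column headers (Control 1, 3 and 4; CAF 1, 2 and 5).

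A microRNA gene is transcribed as a hairpin precursor, from which mature strands of about the length printed here are cut, named 5p and 3p after the arm they come from. Loaded into an Argonaute protein, a mature strand pairs with messenger RNAs mainly through its seed, bases 2 to 8 from its 5′ end, and lowers their translation and stability. Liver RNA holds the microRNAs of hepatocytes together with those of Kupffer cells and other leukocytes, endothelium, stellate cells and blood. Caffeine blocks adenosine receptors and, at higher exposure, the phosphodiesterases that degrade cyclic AMP, and the liver clears it through cytochrome P450 enzymes. The table counts reads per hairpin gene, so the arms of a hairpin cannot be told apart, and all levels are FPKM, reads per kilobase of hairpin and per 1000000 reads on the listed features.

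Mature sequences are given here from RefSeq (rat assembly GRCr8), in lower case with the seed in capitals, for microRNAs with small p-values in the comparison whose gene symbols had a mature entry there. The strands of the pair of genes that passed the test, and of miR-146b, which has the same 5p seed as miR-146a, were:
miR-142-5p: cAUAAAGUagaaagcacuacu
miR-142-3p: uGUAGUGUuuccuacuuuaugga
miR-146a-5p: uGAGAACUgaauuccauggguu
miR-146a-3p: aCCUGUGAaguucaguucuuu
miR-146b-5p: uGAGAACUgaauuccauaggcugu

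The miR-34 and miR-449 strands are shown because 4 genes on 3 chromosomes have the same 5p seed and had values below 0 together in the comparison:
miR-34a-5p: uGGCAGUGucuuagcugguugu
miR-34b-5p: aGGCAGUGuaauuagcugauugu
miR-34c-5p: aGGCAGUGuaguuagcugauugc
miR-449a-5p: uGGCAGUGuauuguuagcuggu

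Among the miR-15/16 and miR-130 family genes whose strands are printed here, values ran from near 0 to below 0. Mir322-2, listed with the miR-15/16 family, had 0.19, and its symbol had no mature entry to print. In the miR-17 family Mir20b had the lowest value of the genes with its seed. RefSeq gives miR-17-5p as the mature strand of both Mir17 and Mir106a.
miR-15b-5p: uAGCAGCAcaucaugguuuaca
miR-16-5p: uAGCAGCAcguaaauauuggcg
miR-195-5p: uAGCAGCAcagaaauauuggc
miR-497-5p: cAGCAGCAcacugugguuugua
miR-130a-3p: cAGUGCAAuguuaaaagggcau
miR-130b-3p: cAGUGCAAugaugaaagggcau
miR-301b-3p: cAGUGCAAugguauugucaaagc
miR-17-5p: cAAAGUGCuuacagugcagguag
miR-20a-5p: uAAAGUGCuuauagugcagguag
miR-20b-5p: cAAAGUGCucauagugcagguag
miR-93-5p: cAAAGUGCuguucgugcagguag
miR-106b-5p: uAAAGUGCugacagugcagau

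The other microRNAs the results turn on follow, with miR-148a, an abundant liver microRNA that has the seed of miR-152:
miR-29b-3p: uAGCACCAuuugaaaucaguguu
miR-342-3p: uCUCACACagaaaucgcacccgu
miR-155-5p: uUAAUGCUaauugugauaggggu
miR-147: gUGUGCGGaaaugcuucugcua
miR-136-3p: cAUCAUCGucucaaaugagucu
miR-3585-5p: uUCACAAGaaggugucuuucau
miR-152-3p: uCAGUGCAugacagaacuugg
miR-148a-3p: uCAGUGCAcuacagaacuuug

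The 6 libraries held 2863572 to 3418568 recovered reads. The label of the tissue was checked against 8 hepatocyte microRNA genes, which took 37.2 to 39.8% of reads in Control and 37.6 to 39.6% in CAF. Mir122 was not in this list and was not among the features tested, so the check does not cover it. Among the features that averaged at least 100 reads, 118 of 135 (87.4%) had a log2 fold change within 0.25 of 0, and the largest in size was 0.94. A fold change is given only where a group averaged above 3 reads, which held for 220 of the 271 features. Of these 220, CAF was higher in 110 and lower in 110, and the median log2 fold change was -0.001.

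Under caffeine, 2 microRNAs fell and none rose past the threshold. Mir142 and Mir146a, both abundant in cells of the immune system, were each lower in every CAF library than in any Control library. These 2 were 0.738% of the 271 features tested (limma, Benjamini-Hochberg adjusted p under 0.05), and the features higher in CAF past that threshold were 0%. At an unadjusted p under 0.05, 25 features were lower in CAF (9.23% of those tested) and 13 were higher (4.8%). Without a model, the 3 CAF libraries all lay below the 3 Control libraries in 24 features (8.86%) and all above them in 19 (7.01%).

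**Figure D1:**
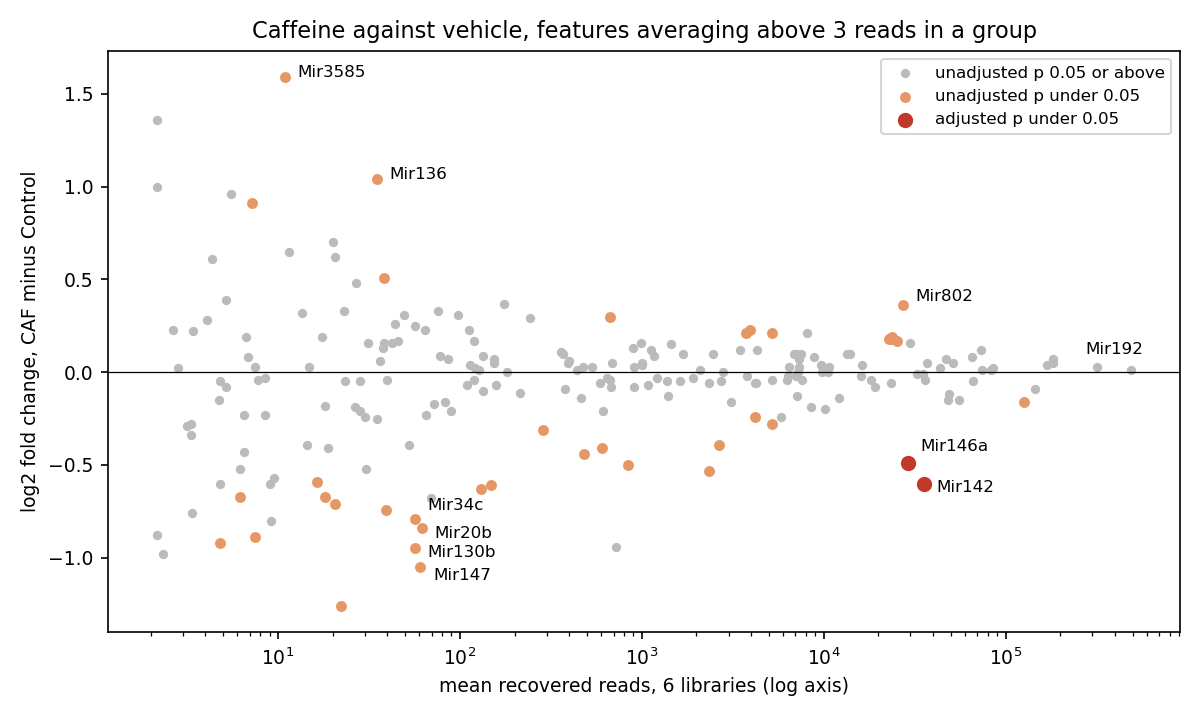
Log2 fold change of CAF against Control (y axis) over the mean recovered reads of the 6 libraries (x axis, log scale), 1 point for each of the 220 features with a fold. The 2 red points below 0 are Mir142 (-0.60) and Mir146a (-0.49), and most of the abundant features lie near 0.

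Mir142 (ENSRNOG00000035633, chromosome 10, 72557857 to 72557967, plus strand, rn7) is expressed in blood cell lineages. Its level was 121229, 128941 and 118051 FPKM in the Control libraries and 93568, 80559 and 70813 FPKM in the CAF libraries. The highest CAF library thus lay below the lowest Control library, and the mean went from 122740 ± 5601 FPKM (SD, n = 3) to 81647 ± 11416 FPKM, a change of -33.5%. The log2 fold change was -0.60 (SE 0.12, limma adjusted p = 0.0311). By RefSeq's GRCr8 annotation the gene lies within the span of the protein-coding gene Tspoap1.

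Mir146a (ENSRNOG00000035466, chromosome 10, 27848516 to 27848610, minus strand) is induced by innate immune signalling and restrains it. Its level was 105799, 129528 and 105763 FPKM in Control and 87940, 76047 and 77620 FPKM in CAF. Again no CAF library reached a Control library, and the mean changed by -29.2%, from 113697 ± 13711 to 80536 ± 6461 FPKM (SD, n = 3). The log2 fold change was -0.49 (SE 0.09, limma adjusted p = 0.0311). Mir146b, which has the same 5p seed, had -0.31 (SE 0.13, limma adjusted p = 0.342) with overlapping libraries.

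The 2 calls rest on several libraries. Neither passed without Control library 1, Control library 3, CAF library 2, CAF library 5 or DEX library 4, nor when only the 6 CAF and Control libraries were fitted or no filter on low features was used, and Mir146a did not pass without DEX library 2. Conversely 10 features passed without CAF library 1, 5 without Control library 4 and 4 without CAF+DEX library 1.

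The list of leukocyte microRNAs holds 6 genes, and in each of them the highest CAF library lay below the lowest Control library, against 8.86% of all features tested. Mir142 and Mir146a passed the test, against 0.738% of all features, and the other 4 did not. The list's median log2 fold change was -0.50 (range -0.61 to -0.28). Its members were chosen with results of these data known, so its counts are a description.

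Mir342, a microRNA of lymphocytes, measured 3000, 3414 and 3092 FPKM in Control and 2473, 2363 and 1924 FPKM in CAF, a log2 fold change of -0.50 (SE 0.12, limma adjusted p = 0.0875). By the RefSeq annotation it lies within Evl, a gene for an actin regulator. Mir155, induced on activation of macrophages and lymphocytes, measured 897, 833 and 902 FPKM in Control and 500, 668 and 569 FPKM in CAF, or -0.61 (SE 0.17, limma adjusted p = 0.11). Mir342 passed in the fit without CAF library 1 and Mir155 in the fit without CAF+DEX library 1. In Mir155 CAF library 1 was the lowest of the 6, the reverse of the other members, in which library 1 was the highest CAF library.

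Mir223, the myeloid microRNA of neutrophils and monocytes, measured 16425, 17495 and 15852 FPKM in Control and 14637, 13922 and 12370 FPKM in CAF. Its log2 fold change of -0.28 (SE 0.10, limma adjusted p = 0.2) was the smallest in size of the list. Mir150, of mature lymphocytes, measured 10411, 10910 and 12710 FPKM in Control and 10240, 8487 and 7451 FPKM in CAF, or -0.39 (SE 0.18, limma adjusted p = 0.348). For Mir150 the groups were separated by a narrow margin, since CAF library 1 lay just under Control library 1.

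**Figure D2:**
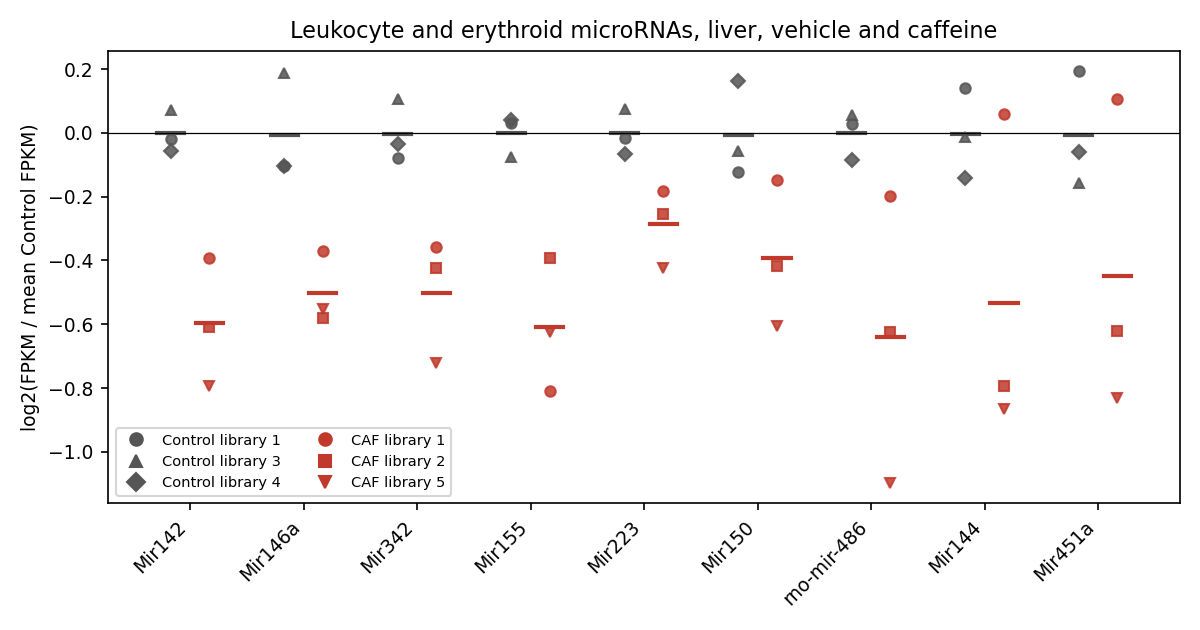
Level of 6 leukocyte and 3 erythroid microRNAs in each library as log2 of FPKM over the Control mean (y axis), 1 symbol per library and a bar at the mean of the 3 logs. In the first 6 all CAF points lie below all Control points. In Mir144 and Mir451a CAF library 1 lies among the Control points.

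Summed over the 6 genes, the leukocyte microRNAs took 2.66, 2.99 and 2.63% of reads in Control and 2.15, 1.87 and 1.75% in CAF, so that the sums did not overlap. Most of each sum came from Mir142 and Mir146a, at 1.14 and 0.930% of the reads of the 6 libraries, against 0.167% for Mir223, the next. The sums therefore mainly restate these genes and say little on the others. In bulk liver RNA, fewer cells of a type and less RNA per cell cannot be told apart. Blood was not analysed apart from the tissue, and the labels' protocols name no perfusion of the liver.

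The 3 erythroid microRNAs were also lower on average, but not in every CAF library, and none passed the test. Mir144 and Mir451a, neighbours on chromosome 10 that are processed from 1 transcript and are the main microRNAs of red cells, measured 11611, 10458 and 9555 FPKM (Mir144) and 2777, 2178 and 2332 FPKM (Mir451a) in Control. In CAF, Mir144 measured 10978, 6079 and 5791 FPKM and Mir451a 2614, 1578 and 1365 FPKM. CAF library 1 was therefore within the Control range and only libraries 2 and 5 were below it.

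The log2 fold changes were -0.53 (SE 0.20, limma adjusted p = 0.276) for Mir144 and -0.44 (SE 0.19, limma adjusted p = 0.342) for Mir451a. For rno-mir-486, the remaining erythroid gene, the libraries did not overlap, with 754, 770 and 697 FPKM in Control against 645, 480 and 346 FPKM in CAF (-0.63, SE 0.22, limma adjusted p = 0.2). The median of the 3 was -0.53, and -0.82 without CAF library 1. In that fit Mir144, Mir451a and rno-mir-486 all passed.

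The erythroid sum was 0.121, 0.108 and 0.101% of reads in Control and 0.114, 0.0651 and 0.0602% in CAF. In CAF library 1, then, the erythroid sum lay within the Control range. The leukocyte sum, mostly Mir142 and Mir146a, lay at 2.15%, below the lowest Control value of 2.63%. Mir7-1 and Mir8, whose mature strand in RefSeq is miR-7a for each, also had libraries 2 and 5 as the low ones of CAF: Mir7-1 measured 34907, 37285 and 35630 FPKM in Control and 37453, 26966 and 30163 FPKM in CAF. CAF library 1 lay above every Control library in both genes. They passed only in the fit without CAF library 1, and as copies of a mature sequence they share reads.

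No microRNA of the lists for other cell types passed the test. Of the 8 hepatocyte genes 7 had values above 0 and 1 below, none passed, and the median was 0.02. Mir192, the most abundant feature with 15.7% of the reads of the 6 libraries, measured 1487677, 1406037 and 1376183 FPKM in Control and 1484872, 1448946 and 1361249 FPKM in CAF (log2 fold change 0.01, SE 0.06). Mir101-2, which encodes miR-101b, had 0.03 (SE 0.06), Mir22 0.03 (SE 0.05) and Mir148a -0.09 (SE 0.08), all with overlapping libraries.

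Mir802 was the exception among the hepatocyte genes. This microRNA, which is raised in the liver of obese mice and bears on glucose handling, measured 85184, 74283 and 81999 FPKM in Control and 101704, 97433 and 109923 FPKM in CAF. All CAF libraries lay above all Control libraries, with a change of the mean of 28% and a log2 fold change of 0.36 (SE 0.10), but it did not pass (limma adjusted p = 0.108) except in the fit without CAF+DEX library 1.

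Of 4 genes of stellate cells and smooth muscle 3 were higher, with a median of 0.15, none passed, and all 4 overlapped between groups. Mir199a2, for example, measured 18302, 26491 and 21033 FPKM in Control and 24584, 26094 and 24585 FPKM in CAF (0.21, SE 0.16). Of 3 epithelial genes of the miR-200 family, which mark bile ducts in liver, 1 was higher and the median was -0.05, with Mir200b spread from 3353 to 7744 FPKM over the 6 libraries. The endothelial list had only Mir126a among the features tested, at 16.67 and 18.33 mean reads in Control and CAF, too few to read a difference from (0.19, SE 0.31).

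Among 4 striated muscle genes with a fold, 3 were lower and none passed, and the group means rest on single libraries. Mir1b measured 5784, 2184 and 2688 FPKM in Control and 941, 2631 and 1918 FPKM in CAF (-0.94, SE 0.44, limma adjusted p = 0.363), and Mir133a-2, which lies next to it on chromosome 3, measured 307, 96.7 and 103 FPKM against 22.7, 99.1 and 84.7 FPKM. Control library 1 was the highest and CAF library 1 the lowest in both, and the other 4 libraries overlapped. The summed share of the list was 0.0656% in Control library 1 and 0.0242% in CAF library 1, against 0.0327 to 0.0401% in the other 4. Skeletal muscle RNA in a liver sample was not tested as a source of these reads.

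The inflammation list overlaps the leukocyte list in Mir146a, Mir155 and Mir223. Of its 8 members 7 were lower, against 136 of all 271 features, with a median of -0.30. The 1 that passed, against 0.738% of all features, was Mir146a, already counted in the leukocyte list. Mir21, raised in many forms of liver injury and 5.45% of reads here, measured 590426, 558662 and 604660 FPKM in Control and 593050, 576829 and 633851 FPKM in CAF (0.04, SE 0.11). Mir221 and Mir222, neighbours on chromosome X, had -0.21 and -0.19, and both overlapped. Mir132 and Mir212 are neighbouring genes that the cyclic AMP responsive factor CREB induces in neurons. Mir132 averaged 6.67 reads in Control and 3.0 in CAF (-0.92, SE 0.39, limma adjusted p = 0.338) and Mir212 averaged 1.33 and 1.0 reads, too few for a fold.

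The miR-34 family (miR-34 and miR-449), which restrains cell division and whose miR-34 members are activated by the tumour suppressor p53, had 4 tested members, and all 4 values were below 0 (median -0.60). None passed the test. Mir34c (chromosome 8, 51409726 to 51409802, minus strand) measured 348, 321 and 224 FPKM in Control and 161, 150 and 192 FPKM in CAF, so the groups did not overlap (-0.79, SE 0.19, limma adjusted p = 0.0837). It averaged 74.67 reads in Control and 38.67 in CAF, and it passed in the fit without Control library 4. Mir34b, its neighbour, measured 104, 97.5 and 55.6 FPKM in Control and 43.7, 42.1 and 69.4 FPKM in CAF. Its libraries overlapped through Control library 4 and CAF library 5 (-0.67, SE 0.29, limma adjusted p = 0.338).

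Mir34a, the member that p53 induces most widely across tissues, held most of the family's reads. It measured 16652, 25676 and 17058 FPKM in Control and 13948, 14956 and 21042 FPKM in CAF (-0.24, SE 0.18, limma adjusted p = 0.697). Mir449a, an epithelial member known from ciliated cells, measured 92.5, 148 and 142 FPKM in Control and 99.8, 63.6 and 98.8 FPKM in CAF (-0.52, SE 0.26, limma adjusted p = 0.42). The larger values of the family thus belonged to its rare members, and both of these last genes overlapped between groups.

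The clearest higher values belonged to the miR-29b genes, which did not pass. The miR-29 family represses collagen and other matrix transcripts. Mir29b-3 (chromosome 13, 106570367 to 106570456) measured 12591, 12996 and 13572 FPKM in Control and 15126, 15087 and 15622 FPKM in CAF, a change of 17% (0.23, SE 0.05, limma adjusted p = 0.0837). Mir29b1 (chromosome 4, 59650986 to 59651067) measured 13215, 13595 and 14163 FPKM in Control and 15609, 15711 and 15945 FPKM in CAF (0.21, SE 0.05, limma adjusted p = 0.0875). In each all CAF libraries lay above all Control libraries with a narrow spread. The 2 genes share the reads of the mature strand, so they count as 1 signal. Mir29b-3 passed with quantile normalization.

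**Figure D3:**
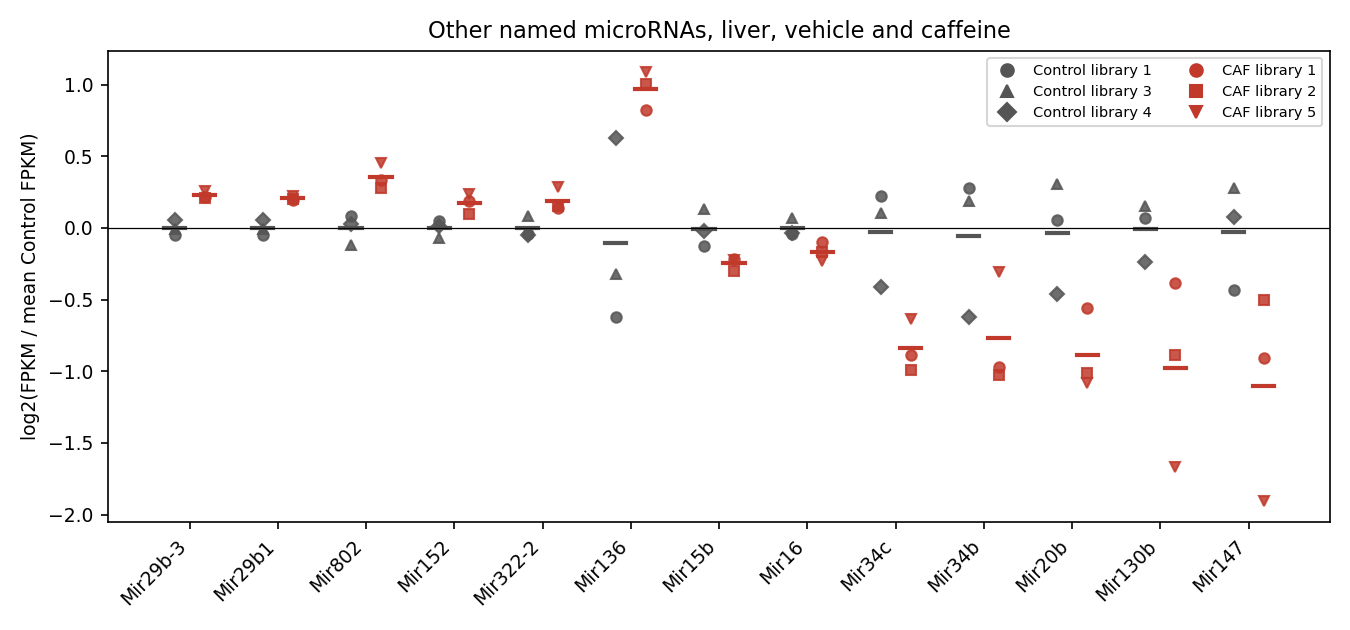
Level of 13 further microRNAs in each library as log2 of FPKM over the Control mean (y axis), 1 symbol per library and a bar at the mean of the 3 logs. The miR-29b genes and Mir802 have all CAF points above all Control points, and Mir15b and Mir16 have them below by small margins, while the rarer Mir34b, Mir130b and Mir147 are widely spread.

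The miR-15/16 family restrains the cell cycle. Mir15b and Mir16, which lie together on chromosome 2 within the gene Smc4, had lower values in CAF, as did Mir15a on chromosome 15 (-0.13, SE 0.09, limma adjusted p = 0.697), whose libraries did not overlap either. Mir195 and Mir497, together on chromosome 10, had 0.00 (SE 0.09) and 0.04 (SE 0.08). Mir15b measured 13664, 16300 and 14682 FPKM in Control and 12821, 12095 and 12770 FPKM in CAF (-0.24, SE 0.08, limma adjusted p = 0.163). Mir16, with 4.06% of reads, measured 438148, 473522 and 439634 FPKM in Control and 420330, 401512 and 384483 FPKM in CAF (-0.16, SE 0.07, limma adjusted p = 0.348). In Mir15b and Mir16 the groups did not overlap, and neither passed.

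Mir322-2, listed with this family, had a value above 0. It measured 72739, 79336 and 72497 FPKM in Control and 82446, 83174 and 91051 FPKM in CAF (0.19, SE 0.07, limma adjusted p = 0.222). It is the end of a run of 6 genes on chromosome X with Mir503, Mir351, Mir542, Mir450b-1 and Mir450a1, all of whose values were above 0 (0.05 to 0.31). Over all tested features, 105 genes lay in 38 groups of neighbours on a strand within 10000 bases of each other, and in 27 of these groups all members had the same sign. Most of these groups were pairs, and some had values near 0, such as 0.01 for both Mir194-2 and Mir192. How many groups would have the same sign without any change was not worked out. Neighbours that are cut from 1 transcript are not independent.

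The miR-17-92 cluster and its paralogs, which promote cell division, had 14 tested members, 10 higher and 4 lower, with a median of 0.12 and none past the threshold. All 6 genes of the cluster on chromosome 15 were above 0, from 0.10 for Mir92a1 to 0.25 for Mir18a. Mir19a, for example, measured 19548, 18880 and 18582 FPKM in Control and 22139, 20693 and 23389 FPKM in CAF (0.21, SE 0.09, limma adjusted p = 0.338), and in this gene the groups did not overlap.

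Mir20b, on the paralogous cluster of chromosome X, was lower: 364, 435 and 255 FPKM in Control against 238, 174 and 166 FPKM in CAF (-0.84, SE 0.22, limma adjusted p = 0.105). It passed in the fits without CAF library 1 and without Control library 4. Its neighbour Mir363 had -0.57 (SE 0.40), while Mir106a, Mir19b2 and Mir92a2 of the same run had 0.29, 0.18 and 0.13. Mir20b averaged 82.67 reads in Control and 41.33 in CAF, and Mir363 9.50 over the 6 libraries. Mir19b2 shares its mature sequence, and so its reads, with Mir19b1 of the cluster on chromosome 15. Mir17, Mir20a, Mir93 and Mir106b, which have the seed of Mir20b, had 0.11, 0.12, -0.04 and 0.01.

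Mir130b, whose seed is shared by Mir130a and Mir301b, measured 297, 314 and 240 FPKM in Control and 217, 153 and 89.3 FPKM in CAF (-0.95, SE 0.29, limma adjusted p = 0.137), and it passed in the fit without CAF library 1. Mir301b, its neighbour on chromosome 11, had -0.59 (SE 0.23) at a mean of 16.5 reads, and the more abundant Mir130a on chromosome 3 had 0.00 (SE 0.08) at 10582 reads. Of these 3 genes, then, the neighbours on chromosome 11 were lower and the gene elsewhere was level. Mir301a, on chromosome 10, was level too, with 0.01 (SE 0.08) at a mean of 2089 reads. Mir301a and Mir301b were chosen after their values were seen.

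Mir147, a microRNA induced in macrophages by Toll-like receptor signals, measured 239, 391 and 341 FPKM in Control and 172, 228 and 86.4 FPKM in CAF (-1.05, SE 0.31, limma adjusted p = 0.128). By the RefSeq annotation it lies within the gene C3h15orf48. Its mean was -49.8% from that of Control, on 83.17 and 38.5 mean reads.

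Of the other genes with higher values, Mir152, which has the seed of Mir148a, measured 93534, 86003 and 91264 FPKM in Control and 102613, 96434 and 106293 FPKM in CAF (0.17, SE 0.06, limma adjusted p = 0.185). The groups did not overlap, whereas Mir148a and Mir148b, with -0.09 and 0.03, did. A further feature that the table lists only by its identifier, ENSRNOG00000066772 (chromosome 14, 43345858 to 43345940), measured 2360, 2192 and 2450 FPKM in Control and 3033, 2956 and 2644 FPKM in CAF (0.30, SE 0.09, limma adjusted p = 0.134).

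Mir136, of the imprinted Dlk1-Dio3 region on chromosome 6, measured 60.8, 74.9 and 145 FPKM in Control and 166, 188 and 199 FPKM in CAF (1.04, SE 0.30, limma adjusted p = 0.128). It passed in the fit without Control library 4, the highest of its Control libraries. Of the 11 Dlk1-Dio3 genes with a fold, 6 were higher and 5 lower, with a median of 0.06 and a range from -0.98 to 1.04. The 5 lower genes were the rarest of the 11, the most abundant of them, Mir300, averaging 7.3 reads in Control. Mir494, the lowest value, averaged 3.3 reads in Control and 1.3 in CAF. Values at such counts cannot show whether the region moved as a unit. Mir3585 had the largest higher value (1.59, SE 0.52, limma adjusted p = 0.167) on 6.33 mean reads in Control and 15.67 in CAF, with a lowest Control library of 2.64 FPKM.

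The remaining lists were near level. The 9 let-7 genes, which restrain growth, had a median of 0.01 (range -0.15 to 0.08), and Mirlet7f2, the most abundant of them, had 0.05 (SE 0.05). The 5 miR-30 genes were all above 0 with a median of 0.10, and their summed share was 5.00 to 5.35% of reads in Control and 5.52 to 5.73% in CAF, although none of the 5 passed. Medians were 0.03 for 5 genes of the miR-23/27/24 clusters, -0.02 for 7 of the miR-10, miR-99 and miR-125 families and -0.10 for 5 of the miR-181 family, which also held no call.

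MicroRNAs reported to target cytochrome P450 or nuclear receptor transcripts were examined because the liver clears caffeine by P450 enzymes. Of 9 tested, 5 were higher and 4 lower, with a median of 0.02 and none past the threshold, and Mir27b had 0.08 (SE 0.06). Of 9 genes of lipid and glucose handling, 5 were higher and 4 lower (median 0.07, none past the threshold). The summed share of the latter was 8.92 to 9.27% of reads in Control and 9.30 to 9.97% in CAF, and Mir26b, which held most of it, had 0.07 (SE 0.05). Of 4 neuron and islet genes the median was -0.08.

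**Figure D4:**
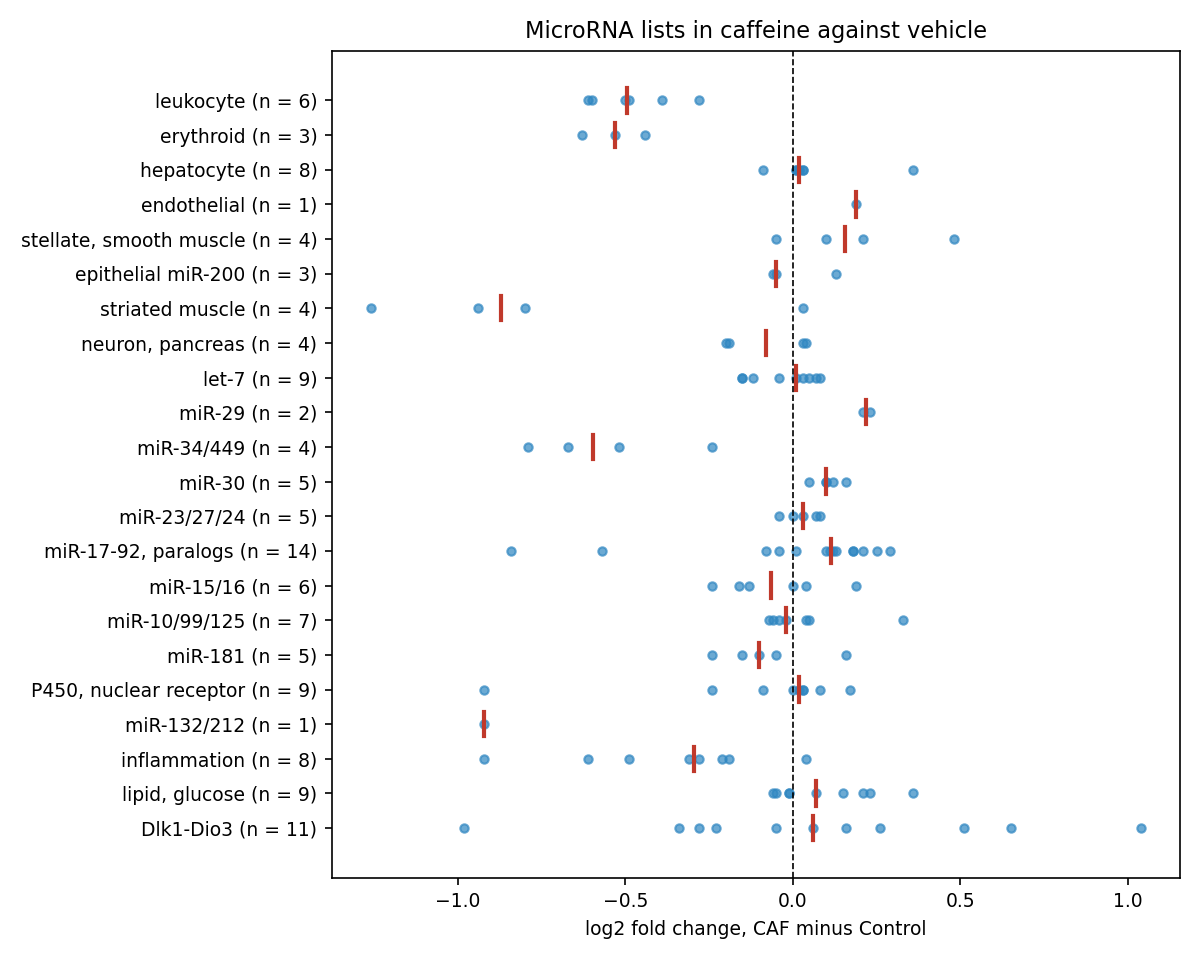
Log2 fold changes of CAF against Control (x axis) for the members of 22 lists (y axis, n members with a fold), 1 point per gene with a red bar at the median and a dashed line at the median of all features with a fold. The leukocyte, erythroid and miR-34 family lists have all points left of 0, and the hepatocyte and let-7 lists lie around 0.

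The same dose of caffeine was also given with dextromethorphan, and CAF+DEX against DEX uses 6 libraries that CAF against Control does not. In that comparison 0 of the 271 features passed (0%; limma, smallest adjusted p = 0.121, that of Mir146a), and 20 had an unadjusted p under 0.05 (7.38%). Mir146a measured 127851, 119513 and 116049 FPKM in DEX and 80688, 98002 and 87801 FPKM in CAF+DEX, a log2 fold change of -0.45 (SE 0.09) beside -0.49 without dextromethorphan. Mir142 measured 107645, 135052 and 107586 FPKM in DEX and 83044, 102689 and 97311 FPKM in CAF+DEX, or -0.30 (SE 0.12, limma adjusted p = 0.535) beside -0.60. In both genes the 3 CAF+DEX libraries lay below all DEX libraries. The share of all features without overlap was not counted for this contrast.

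The difference between the 2 caffeine contrasts was tested in the same fit and passed for 0 features (limma, smallest adjusted p = 0.854; 15 had an unadjusted p under 0.05). It was 0.04 (SE 0.13) for Mir146a and 0.29 (SE 0.16) for Mir142 on the log2 scale. Of the 38 features with an unadjusted p under 0.05 in CAF against Control, 30 had the same sign in CAF+DEX against DEX, as did 167 of all 271 (61.6%). These were 21 of the 25 lower and 9 of the 13 higher features. An unadjusted p under 0.05 with the same sign was found for 9 of the 38, and with the other sign for 0. Because the contrasts share the estimate of the spread, these p-values are not separate tests.

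Some of the abundant genes had close values in the 2 contrasts. Mir15b had -0.24 in each, Mir16 -0.16 and -0.18, Mir152 0.17 and 0.17, and Mir322-2 0.19 and 0.20. Mir15b measured 15946, 14000 and 15237 FPKM in DEX and 12191, 13640 and 12406 FPKM in CAF+DEX, so that the groups did not overlap there either. The same held for Mir322-2 and for Mir152, at 86325, 87199 and 88326 FPKM in DEX and 91865, 103110 and 99079 FPKM in CAF+DEX. For Mir16 the libraries of DEX and CAF+DEX overlapped. With no share over all features counted for this contrast, the separation is a description. The difference between the contrasts lay between -0.01 and 0.00 for these 4 genes (SE 0.08 to 0.11), and neither contrast passed the adjusted threshold. Other abundant genes were less alike: Mir19a had 0.21 and 0.01, Mir19b1 0.18 and 0.09, and Mir223 -0.28 and -0.01.

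Of the other leukocyte genes, Mir342 had -0.31 (SE 0.12) with dextromethorphan, Mir150 -0.08 (SE 0.18), Mir155 -0.03 (SE 0.17) and Mir223 -0.01 (SE 0.10), and the last 3 overlapped between DEX and CAF+DEX. The value of Mir155 rests on CAF+DEX library 1, at 1091 FPKM. CAF+DEX libraries 2 and 5 measured 733 and 678 FPKM, below the DEX libraries at 821, 846 and 832 FPKM. The list's median was -0.19 in CAF+DEX against DEX, with 6 of 6 values below 0. The leukocyte sum, here too mostly Mir142 and Mir146a, was 2.67, 2.97 and 2.59% of reads in DEX and 1.96, 2.40 and 2.16% in CAF+DEX. The erythroid sum was 0.0906, 0.122 and 0.107% in DEX and 0.0847, 0.0940 and 0.0870% in CAF+DEX, which overlap.

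In the miR-34 family all 4 values were below 0 in CAF+DEX against DEX as well, with a median of -0.44. Mir34c had -0.13 (SE 0.19) there, while Mir449a had -0.67 (SE 0.26), Mir34b -0.56 (SE 0.29) and Mir34a -0.31 (SE 0.18), and in the last 3 the libraries of DEX and CAF+DEX did not overlap. With no share over all features counted for this contrast, that separation is a description. The miR-29b genes had 0.05 each (SE 0.05), from a DEX level that was itself above Control: Mir29b-3 measured 14578, 15443 and 15005 FPKM in DEX and 15017, 15625 and 16027 FPKM in CAF+DEX. All 3 DEX libraries lay above the highest Control library, at 13572 FPKM. Mir136 had -0.33 (SE 0.30), the other sign, with a difference between the contrasts of -1.37 (SE 0.43), and Mir802 had 0.21 (SE 0.10).

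**Figure D5:**
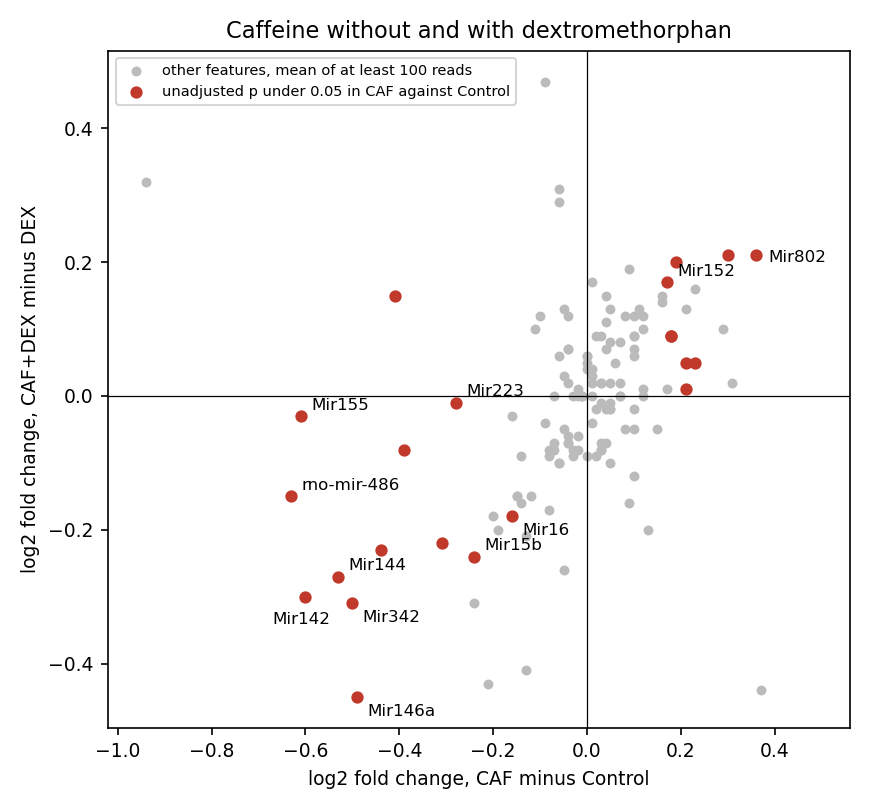
Log2 fold change of CAF against Control (x axis) and of CAF+DEX against DEX (y axis) for the 135 features averaging at least 100 reads over the 12 libraries. Red points had an unadjusted p under 0.05 in CAF against Control. Mir146a is at -0.49 and -0.45, and Mir155 and Mir223 are near 0 on the y axis.

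Across these 135 features Pearson's r between the contrasts was 0.35 and Spearman's rho 0.49, and across all 271 they were 0.06 and 0.18. These describe features within the same libraries, which are not independent of each other.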

How the data were processed

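The authors deposited FPKM values for hairpin features of 46 to 141 bases. Per the labels' protocols, the QIAseq miRNA kit used adds unique molecular indices during reverse transcription and the sources used here do not say whether the indices were collapsed before counting. The submitters' processing notes list cutadapt 3.7, STAR 2.7.11b, Subread 2.0.6 with featureCounts, and genome build rn7. In every library the deposited FPKM, times length in kilobases, summed to 1000000, so values are relative to reads on the listed features, and a change in an abundant feature shifts the others. Reads were recovered as multiples of 0.01 read, as when a read is shared among places it maps to, so no count model was used.

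Values were taken as log2(FPKM + 3.797), 3.797 being the 10th percentile of values above 0, which shrinks the fold changes of rare features. The 12 libraries were fitted together with limma-trend (limma 3.58.1, R 4.3.3) and 4 group means, and p-values were adjusted by Benjamini-Hochberg over 271 features with a threshold of 0.05. Replicate libraries differed by more than counting noise (chi-square of 50.0 to 258.1 for each degree of freedom, 139 features). The test was checked on simulated data.

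The features compared, the 22 lists and the tests were chosen with earlier results of these data known. Named are the features past the threshold, the 12 of smallest p and the 8 of smallest p in each direction among those above 3 reads in a group, all members of the leukocyte, erythroid, miR-29 and miR-34 family lists, the 3 of smallest p of each other list, the 5 most abundant, and Mir192, Mir21, Mir132 and Mir212. Others were chosen after their values were seen. RefSeq entries were matched by symbol for 385 of 444 features and 61 of the 67 named.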

Additional observations from a re-analysis of the deposited data

How the results depend on the processing

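The count of features past the threshold in CAF against Control, 2 as reported, was 0 with no filter on low features and with only the 2 groups compared, and 4 with quantile normalization, which added Mir29b-3 and ENSRNOG00000066772. Leaving out 1 of the 12 libraries at a time gave 0 to 10. It was 2 with limma-voom on the recovered reads, either other pseudocount (1 or 37.97), a mean of at least 10 reads, median centring, and a filter over all 12 libraries. Over all 21 alternatives the log2 fold change of Mir142 ran from -0.70 to -0.50 (limma adjusted p 0.00965 to 0.126) and that of Mir146a from -0.56 to -0.40 (0.0112 to 0.126). The count for CAF+DEX against DEX, 0 as reported, was 1 with quantile normalization and 0 to 1 with a library left out, and the count for the difference of the contrasts was 0 to 1. The cause of these changes was not tested. The fit without a filter adjusted over 341 features, and the fits with a library left out or with only the 2 groups used fewer libraries.

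Values near 0 changed sign under some settings. With quantile normalization Mir148a had 0.061, Mirlet7f2 -0.021, Mir99b 0.113, Mir181a2 0.031, Mir101-2 0.000 and Mir141 0.140. With 1 library left out at a time, the values ran from -0.003 to 0.093 for Mir125b1, -0.102 to 0.660 for Mir10b, -0.012 to 0.061 for Mir24-2, -0.018 to 0.414 for Mir126a, -0.007 to 0.061 for Mir101-2, -0.029 to 0.359 for Mir429, -0.145 to 0.084 for Mir141, -0.093 to 0.144 for Mir375, -0.278 to 0.249 for Mir200b and -0.018 to 0.044 for Mir192. The medians of 8 lists, over all tested members, also crossed 0: hepatocyte (-0.01 to 0.04), let-7 (-0.03 to 0.06), Dlk1-Dio3 (-0.14 to 0.38), miR-200 family (-0.11 to 0.25), miR-181 (-0.19 to 0.09), miR-10, miR-99 and miR-125 (-0.07 to 0.03), miR-23/27/24 (-0.01 to 0.07) and P450 or nuclear receptor (-0.03 to 0.05). That of the neuron and islet list ran from -0.20 to -0.01, of the leukocyte list from -0.54 to -0.43 and of the erythroid list from -0.82 to -0.36. No paired analysis was possible because the Control and CAF columns share only number 1. Precision is limited by 3 libraries per group and, under about 100 reads, by counting.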

Other observations

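A few features outside the naming rule, chosen after their values were seen, also had an unadjusted p under 0.05 in CAF against Control, and none passed the adjusted threshold. Mir187 had -0.74 (SE 0.23, limma adjusted p = 0.146) and -0.68 (SE 0.23) in CAF+DEX against DEX, at a mean of 39.5 reads. The genes of miR-138, Mir138-1 and Mir138-2, had -0.71 and -0.89 at 20.5 and 7.50 reads, and they share a mature sequence. Mir190b had -0.41 at 603 reads in CAF against Control and 0.15 in CAF+DEX against DEX. Mir874 had 0.91 at 7.17 reads and Mir3583 -0.67 at 6.17 reads.

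The endothelial microRNA Mir126a averaged 16.67 reads in Control, and Mir30e was at 0 in all 6 libraries. Both values are those of the deposited table, and their levels by another count were not analysed here.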
